A study of Mus musculus with 2 samples.

Results

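Heat shock genes encode chaperones, proteins that bind unfolded or newly made proteins and help them fold, and 8 of them were followed here by gene symbol, as 8 of the 31057 gene rows of each count table. They were Hspa1a, Hspa1b and Hspa8 of the HSP70 family, Dnajb1 and Hsph1, which work with HSP70, Hsp90aa1, the small heat shock protein gene Hspb1, and Hspe1 of mitochondria. All 8 had a row in both tables. The study profiled single liver endothelial cells with a droplet assay that counts unique molecular identifiers (UMIs), each standing for 1 captured transcript, at the 3′ end of the mRNA. There were 2 libraries, 1 control and 1 cirrhosis, and each pooled cells from 3 mice. Every mouse was C57BL/6, 16 weeks old, Cdh5-Cre+ and mTmG +/+, so that a Cre driven by the endothelial Cdh5 promoter switches on membrane GFP. The cirrhosis mice inhaled vaporized carbon tetrachloride (CCl4), a liver toxin, for 12 weeks, and the control mice carried the same genotype. Livers were perfused with collagenase, hepatocytes were spun out, and live GFP-positive cells were sorted. With 1 library in each group there was no replicate, so no difference could be tested and the difference between libraries cannot be told apart from that between conditions. All intervals given here are 95% intervals and cover counting error only.

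When proteins unfold, heat shock factor 1 leaves its chaperone complexes, assembles into trimers and binds repeats of short inverted elements in the promoters of these genes. Hspa1a, Hspa1b, Dnajb1, Hsph1 and Hspb1 are known as strongly inducible, whereas Hspa8 is the constitutive HSP70 of nearly every cell. Enzymatic dissociation of tissue is itself known to induce these genes together with immediate-early genes such as Fos, and no value here was measured outside dissociated cells.

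The control library held 5642 barcodes and 45767322 UMIs, and the cirrhosis library 8327 barcodes and 77339928 UMIs. After filters, 4953 and 7191 barcodes were kept, and the libraries shared 17 barcode sequences. Clustering left out the heat shock, chaperone and immediate-early genes of the lists read below, but not genes of those kinds off the lists. It gave 2704 control and 2764 cirrhosis cells like liver sinusoidal endothelial cells (LSEC), the fenestrated lining of liver capillaries. They carried Stab2, a scavenger receptor of these cells, at 2379 CPM (counts per 1000000 UMIs) in control and 1677 CPM in cirrhosis. Median depth was 6835 UMIs per control cell and 9662.5 per cirrhosis cell. In the first clustering most control LSEC-like cells lay in cluster 0 and most cirrhosis ones in cluster 1. Of 13 lists of markers of other cell types, the hepatocyte list summed to 449.9 CPM in control and 666.4 CPM in cirrhosis LSEC-like cells, and the Kupffer cell list to 81.4 and 226.4 CPM. The monocyte and other myeloid list was also higher in cirrhosis, at 59.9 and 152.9 CPM, as were the cholangiocyte, neutrophil, plasmacytoid dendritic and platelet lists. The remaining lists were lower in cirrhosis. Among them the plasma cell list was at 320.1 and 164.6 CPM, the stellate or fibroblast list at 74.2 and 35.6 CPM and the T or NK list at 16.9 and 8.66 CPM. Alb was at 104.7 and 171.0 CPM, and none of the 14 hepatocyte markers was at 0 in either library. The part of such transcripts in the results below was not tested.

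Promoters of 6 of the 8 genes were in the RefSeq promoter table (GRCm38.p6, the assembly that mm10 names), which holds 250 bases before and 50 bases after each transcript start. They were searched for the inverted pairs GAANNTTC and TTCNNGAA, each of which reads the same on both strands, and which can overlap by sharing an element. Of 32851 promoter windows in the table, 7.86% held the first pair, 8.52% the second and 15.1% either. Among the 6 genes, 5 held a pair and Dnajb1 held none in either of its 2 windows. The bases just before the start are printed for the genes that held a pair, with the pairs in capitals, because these are the letters that heat shock factors are known to read.
Hspa1a, chr17:34972157-34972306, minus strand: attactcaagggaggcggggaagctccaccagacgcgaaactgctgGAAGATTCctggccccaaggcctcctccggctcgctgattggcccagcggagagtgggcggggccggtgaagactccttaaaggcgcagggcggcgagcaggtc
Hspa1b, chr17:34959239-34959388, minus strand: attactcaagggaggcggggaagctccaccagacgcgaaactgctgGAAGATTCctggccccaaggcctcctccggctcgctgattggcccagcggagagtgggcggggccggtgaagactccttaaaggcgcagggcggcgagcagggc
Hspb1, chr5:135887769-135887918, plus strand: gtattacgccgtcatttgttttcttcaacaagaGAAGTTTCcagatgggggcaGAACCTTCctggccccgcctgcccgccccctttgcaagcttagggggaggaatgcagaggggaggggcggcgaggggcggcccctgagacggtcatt
Hsph1, chr5:149636337-149636486, minus strand: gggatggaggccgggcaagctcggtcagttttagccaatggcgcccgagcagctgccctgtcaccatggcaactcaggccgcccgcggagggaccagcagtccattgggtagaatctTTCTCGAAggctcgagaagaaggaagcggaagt
Hspe1, chr1:55087998-55088147, plus strand: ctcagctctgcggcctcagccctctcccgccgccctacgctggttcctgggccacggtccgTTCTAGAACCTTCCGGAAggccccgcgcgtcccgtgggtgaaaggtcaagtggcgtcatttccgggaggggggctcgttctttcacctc

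Hspa1a and Hspa1b carried the same pair, beginning 104 bases before the start, and their printed 150 bases differed at 1 position. In Hspb1 the pairs began 117 and 97 bases before the start. In Hsph1, read from the printed start, 1 pair began 33 bases before it and 2 overlapping pairs began 36 and 41 bases after it. Those 2 lie outside the printed bases and make 3 elements in a row. Hspe1 held 3 overlapping pairs, beginning 89, 84 and 79 bases before the start, which make 4 elements in a row. Of the 32851 windows 198, or 0.603%, held a run of 3 or more, and only 8, or 0.0244%, a run of 4 or more. Both counts were made after the sequences were seen. A match describes letters in a window and does not show that a factor bound there.

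Hspa1a and Hspa1b encode the stress-inducible HSP70 and lie 9951 bases apart on chromosome 17. Their coding sequences were 99.4% identical over 1929 aligned bases, and the stretches after the stop codon 48.1% identical, so how reads were divided between the rows depends on where they fell. Hspa1a (chr17:34969190-34972156, minus strand in GENCODE M21) also overlaps Gm20481 on the other strand, and the sources used here do not state how strand was treated. In LSEC-like cells the Hspa1a row held 377 UMIs in control and 320 in cirrhosis, or 18.8 CPM (interval 17.0 to 20.8) and 11.8 CPM (10.5 to 13.2). On the log2 scale cirrhosis was lower by a ratio of -0.68 (-0.89 to -0.46). Hspa1b (chr17:34956436-34959238, minus strand) was at 9.94 CPM in control and 10.6 CPM in cirrhosis, with a log2 ratio of 0.09 whose interval, -0.17 to 0.36, spans 0. Their sum was 28.8 CPM in control and 22.4 CPM in cirrhosis, a log2 ratio of -0.36 (-0.53 to -0.19).

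Hspa8 (chr9:40800984-40810087, plus strand) encodes the constitutive HSP70 that folds new proteins and uncoats clathrin vesicles. It stood at 1072 CPM in control and 704.1 CPM in cirrhosis LSEC-like cells, 1.52-fold lower in cirrhosis, a log2 ratio of -0.61 (-0.63 to -0.58). Hspa8 supplied 72.4% of the UMIs of the 8 genes in control and 67.1% in cirrhosis, so their sum, 1481 and 1049 CPM, mostly follows it.

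The partners of HSP70 were lower in cirrhosis as well. Dnajb1 (chr8:83608193-83612653, plus strand) encodes a J-domain protein that delivers clients to HSP70 and starts its ATP hydrolysis. It was at 61.8 CPM in control and 33.9 CPM in cirrhosis, a log2 ratio of -0.87 (-0.99 to -0.74), the lowest of the 8 genes. Hsph1 (chr5:149614287-149636376, minus strand), a large HSP70 relative that exchanges its nucleotide, was at 24.7 CPM in control and 14.4 CPM in cirrhosis, with a log2 ratio of -0.78 (-0.97 to -0.58).

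The remaining genes split. Hspb1 (chr5:135887919-135889563, plus strand), a small chaperone that holds unfolded proteins and binds the actin cytoskeleton, was at 45.6 CPM in control and 28.9 CPM in cirrhosis, a log2 ratio of -0.66 (-0.80 to -0.52). Hsp90aa1 (chr12:110690605-110702728, minus strand), the inducible cytosolic HSP90 that matures kinases and receptors, was at 134.7 and 121.9 CPM, a log2 ratio of -0.14 (-0.22 to -0.07), or -0.05 (-0.13 to 0.02) with scaling by the median of ratios. Hspe1 (chr1:55088132-55091307, plus strand) encodes the lid of the mitochondrial chaperonin and overlaps Hspd1, the chaperonin itself, on the other strand. Its level was 113.3 CPM in control and 123.8 CPM in cirrhosis, a log2 ratio of 0.13 (0.05 to 0.21).

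**Figure D1:**
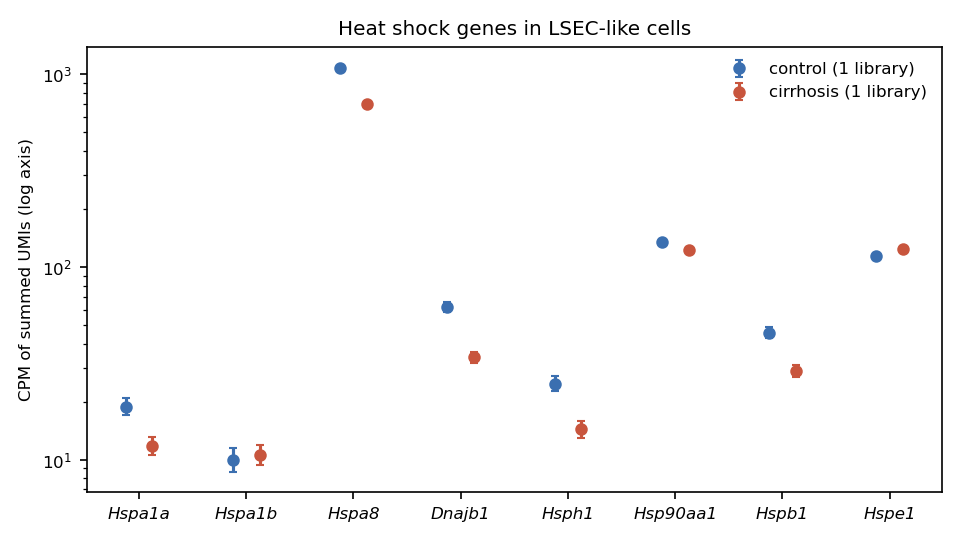
Level of each heat shock gene in LSEC-like cells, as CPM of the summed UMIs on a log axis, with exact Poisson 95% intervals; each point is 1 library. Hspa1a, Hspa8, Dnajb1, Hsph1 and Hspb1 lie lower in cirrhosis, Hsp90aa1 slightly lower, Hspa1b at 9.94 and 10.6 CPM with overlapping intervals, and Hspe1 slightly higher.

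The median log2 ratio of the 8 genes was -0.63, beside -0.05 over the 6891 genes with a mean of 20 CPM. Of the 8, 5 reached that mean, and Hspa1a, Hspa1b and Hsph1 did not. Among those 5, Hspa8, Dnajb1 and Hspb1 were past 1.5-fold lower in cirrhosis and none was past it higher. Over all 6891 genes, 5.2% were past 1.5-fold lower and 4.32% past it higher. This balance turned with the scaling: 4.01% were past it lower and 5.8% higher with TMM, and 3.94% and 6.09% with the median of ratios. These scalings move every ratio in LSEC-like cells up by 0.08 and 0.09. Hspa8 and Hspb1 stood close to that fold and lost it under both, so that Dnajb1 alone was counted with TMM, and Dnajb1 with Hsph1, which then reached the mean of 20 CPM, with the median of ratios.

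Levels were then read along the sinusoid. LSEC-like cells were divided by zone markers into pericentral (368 control and 502 cirrhosis cells), intermediate (1961 and 1854) and periportal (375 and 408) cells. Dnajb1 had nearly the same log2 ratio in the 3 zones, -0.85, -0.90 and -0.94 in that order. Hspa8 was at 1026 and 757.0 CPM in pericentral cells, at 1077 and 688.6 CPM in intermediate cells and at 1100 and 692.4 CPM in periportal cells. Hspb1 was lower in cirrhosis in pericentral and intermediate cells and higher in periportal cells. It was at 40.7 CPM in control and 30.2 CPM in cirrhosis in pericentral cells. In intermediate cells it was at 48.0 and 24.0 CPM, and in periportal cells at 37.6 and 49.3 CPM. Its log2 ratio was -1.002 (-1.18 to -0.82) in intermediate cells and 0.39 (0.03 to 0.76) in periportal cells. Hsph1 was at 28.5 and 11.7 CPM in periportal cells, a log2 ratio of -1.29 (-1.86 to -0.73), and at 33.7 and 21.9 CPM in pericentral cells, where the ratio was -0.62 (-1.01 to -0.23). Whether zones differed was not tested.

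Each gene had its own order of cell classes, read here among classes with at least 50 cells. Among these, Hspa1a in control was highest in cells like Kupffer cells, the resident liver macrophages, at 156.2 CPM (interval 138.0 to 176.2), 8.30-fold the LSEC-like level. There 67 of 105 control Kupffer cell-like cells held at least 1 Hspa1a UMI, beside 9 of 259 control T or NK cell-like cells; median depths were 14751 and 6709 UMIs. Only 35 Kupffer cell-like cells were found in cirrhosis, too few for a level, and 9 of them held 15 Hspa1a UMIs in all. Cells like large-vessel endothelium, marked by Vwf and Plac8 among others, came next at 85.4 CPM in control and 23.2 CPM in cirrhosis, a log2 ratio of -1.88. A single control cell supplied 22 of those 79 control UMIs, and without the highest cell the levels were 61.9 and 21.5 CPM. Hspa1a was near its floor in T or NK cell-like cells, with 9 and 2 UMIs, and in hepatocyte-like cells, with 4 and 19. Hspa1b had another order in control. It was highest in cholangiocyte-like cells, at 26.1 CPM (19.2 to 34.6), and at 18.9 CPM (12.9 to 26.6) in Kupffer cell-like cells, beside 9.94 CPM in LSEC-like cells. How reads were divided between Hspa1a and Hspa1b there was not tested. The mixed endothelial and Kupffer class in control held Hspa1a at 13.2 CPM, beside 18.8 CPM in LSEC-like cells.

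Hspb1 in control was highest in large-vessel endothelial-like cells and next in cholangiocyte-like cells. In cirrhosis lymphatic endothelial-like cells came first and large-vessel ones second, while cholangiocyte-like cells stood behind the mixed endothelial and stellate or fibroblast class, at 155.7 CPM, and beside hepatocyte-like cells, at 123.1 CPM. In large-vessel endothelial-like cells it was at 152.3 CPM in control and 188.6 CPM in cirrhosis, 3.34-fold and 6.52-fold the LSEC-like level of the same library. In cells like cholangiocytes, which line the bile ducts, it was at 124.5 and 121.0 CPM, and in lymphatic endothelial-like cells, of which 63 came from cirrhosis and 2 from control, at 218.9 CPM in cirrhosis. T or NK cell-like cells held 14 and 8 Hspb1 UMIs. Hspe1 was highest in hepatocyte-like cells, at 496.6 CPM in control and 833.4 CPM in cirrhosis, 4.38-fold and 6.73-fold the LSEC-like level. Hspa8 in control was highest in T or NK cell-like cells, at 1595 CPM (interval 1541 to 1651), above the 1072 CPM of LSEC-like cells. Hsp90aa1 was highest in cholangiocyte-like cells in both libraries, at 396.8 and 365.9 CPM. The control level of Dnajb1 lay between 36.0 CPM in hepatocyte-like cells and 84.3 CPM in large-vessel endothelial-like cells among the classes with at least 50 cells, and the interval of each class overlapped that of the next in the order.

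**Figure D2:**
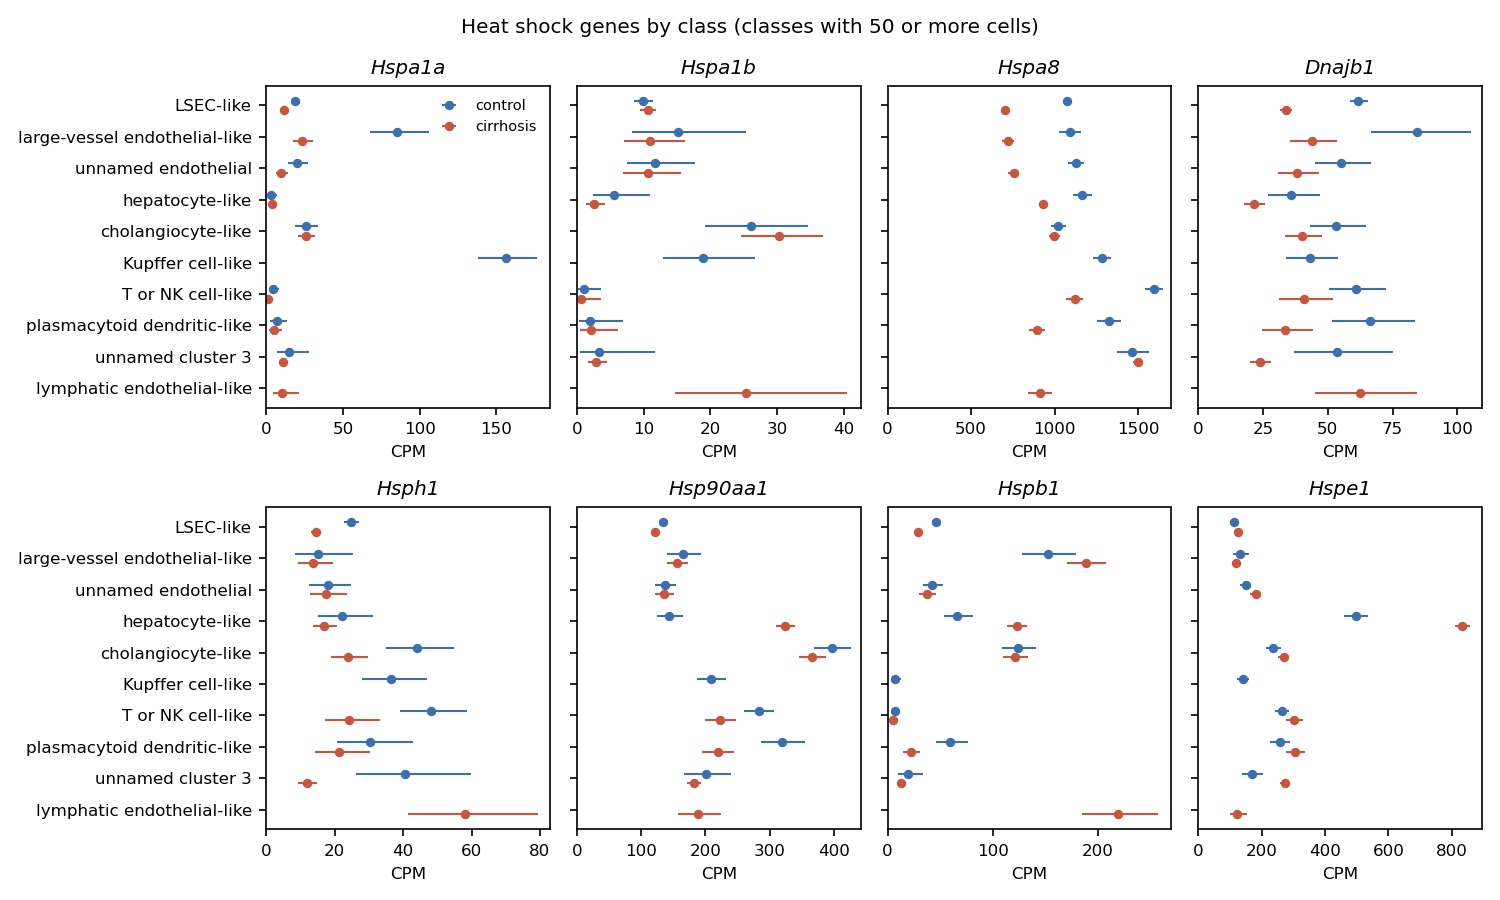
Level of each heat shock gene by class, as CPM of the summed UMIs with exact Poisson 95% intervals, for the control and the cirrhosis library; a missing point is a class with under 50 cells in that library. Hspa1a reaches 156.2 CPM in control Kupffer cell-like cells, Hspb1 188.6 CPM in cirrhosis large-vessel endothelial-like cells and Hspe1 833.4 CPM in cirrhosis hepatocyte-like cells.

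Across the 13 classes with 50 cells in both libraries, zones counted separately, the genes differed in how widely they were lower in cirrhosis. Dnajb1 was lower in 13 of 13 classes, with log2 ratios from -1.17 to -0.33. Hspa8 was lower in 12 of 13, and in unnamed cluster 3, led by Lyz2, Trem2 and Gpnmb, it was at 1466 and 1498 CPM. Hsph1 was lower in 12 of the 12 classes where both libraries held 20 of its UMIs, from -1.79 in unnamed cluster 3 to -0.03 in the unnamed endothelial class. Hspe1 went the other way and was higher in 12 of 13 classes, up to 0.75 in hepatocyte-like cells. Because all classes of a library share its mice, sort and sequencing, these classes are not replicates. The share of all genes lower, or higher, in as many classes was not counted. Whether the heat shock genes differ from other genes in this was therefore not tested.

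Hepatocyte-like cells had the highest ratios of Hsp90aa1, Hspb1 and Hspe1 among the classes with at least 20 UMIs of the gene in both libraries. Of such classes, Hsp90aa1 was higher in cirrhosis in 4 of 13 and Hspb1 in 5 of 11. In hepatocyte-like cells Hsp90aa1 was at 143.9 CPM in control and 324.2 CPM in cirrhosis, a log2 ratio of 1.17 (0.96 to 1.39). Hspb1 was at 66.4 and 123.1 CPM, a ratio of 0.89 (0.58 to 1.21). Dnajb1 in the same cells was at 36.0 and 21.4 CPM, a ratio of -0.75 (-1.23 to -0.25). The 423 control cells lay mostly in cluster 9 and the 1299 cirrhosis cells in cluster 2, and their median depths were 1758 and 2205 UMIs. Stab2 was at 776.0 CPM in the control and 369.4 CPM in the cirrhosis hepatocyte-like cells, so endothelial transcripts were present in both; their part was not tested. A scaling by the median of all gene ratios moves the ratios in this class up by 0.23. In cholangiocyte-like cells several genes differed little: Hspa8 was at 1021 and 997.4 CPM, Hspa1a at 25.5 and 25.7 CPM and Hspb1 at 124.5 and 121.0 CPM, while Hsph1 was at 44.0 and 23.9 CPM. In plasmacytoid dendritic cell-like cells Hspb1 was at 59.7 and 22.0 CPM, but 1 control cell held 33 of the 63 UMIs, and without the highest cell the levels were 29.5 and 16.6 CPM.

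**Figure D3:**
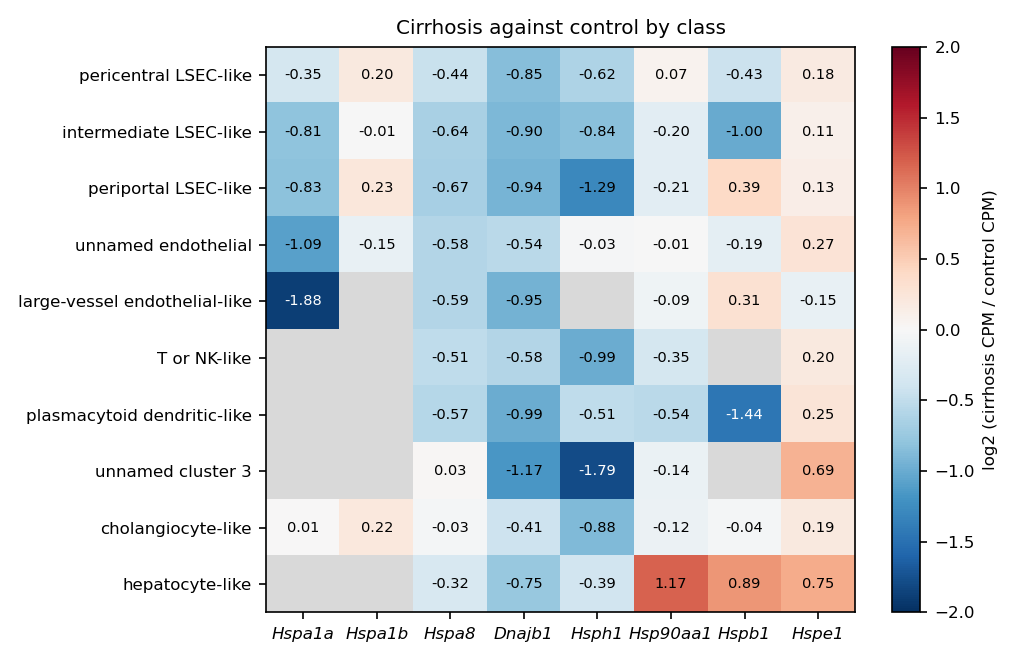
log2 ratio of cirrhosis CPM to control CPM for each heat shock gene (columns) in 10 classes (rows); grey marks cells of the plot with fewer than 20 UMIs in either library. Dnajb1 is lower in all 10 classes shown, and Hsp90aa1, Hspb1 and Hspe1 are higher in hepatocyte-like cells at 1.17, 0.89 and 0.75.

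In 1 control cell all 8 genes were detected at once and most stood far above any other cell. It held 5729 UMIs, and 16.3% of them came from the 8 genes: 350 from Hspb1, 159 from Hspa1a, 77 from Hspa1b, 168 from Hspa8, 84 from Hsp90aa1, 54 from Dnajb1, 34 from Hsph1 and 6 from Hspe1. The same cell held 17 UMIs of Dnajb4, 14 of Cryab, a small heat shock protein gene, 150 of Jun and 79 of Atf3, but 2 of Fos. It belonged to a small class of pericentral endothelial cells low in LSEC markers, 32 in control and 310 in cirrhosis, and supplied 88.8% of that class's 179 control Hspa1a UMIs and 93.1% of its 376 control Hspb1 UMIs. Taking Hspa1a, Hspa1b, Dnajb1, Hsph1 and Hspb1 together, it was the only retained barcode of either library with 1% or more of its UMIs from them; the next control cell had 0.977% and the highest cirrhosis cell 0.663%. It was picked out after the values were seen, and it lies outside the LSEC-like cells. Within LSEC-like cells the highest cell supplied at most 2.92% of a gene's UMIs in either library.

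The relation to Fos, an immediate-early gene that dissociation is known to induce, was read in LSEC-like cells thinned to 3000 UMIs each. This left 2490 control and 2652 cirrhosis cells and dropped 214 and 112 shallower ones. Fos itself was at 2189 CPM in control and 216.1 CPM in cirrhosis before thinning, a log2 ratio of -3.34. In control the thinned cells divided into 535 with no Fos UMI, 460 with 1 to 2, 415 with 3 to 5, 556 with 6 to 10 and 524 with 11 or more. In cirrhosis 1781 cells had none, 697 had 1 to 2 and 155 had 3 to 5, and higher classes held under 20 cells and were not read.

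Dnajb1 was higher in each successive Fos class in control. It was at 0.280 UMIs per 10000 (interval 0.204 to 0.375) in cells with no Fos UMI, and at 0.442, 0.570, 0.677 and 0.789 (0.656 to 0.940) in the successive Fos classes. In cirrhosis it was at 0.320, 0.311 and 0.301 over the 3 classes. In cells with no Fos UMI the libraries therefore had overlapping intervals, with a log2 ratio of 0.19 (-0.29 to 0.70), while in cells with 3 to 5 it was -0.92 (-1.86 to -0.08). The control levels rest on 45 to 124 UMIs per Fos class, and across control cells Pearson's r between Fos and Dnajb1 was 0.13, a weak relation. By zone, the Dnajb1 ratio in cells with no Fos UMI was -0.28 (-1.25 to 0.82) in pericentral and 0.03 (-0.56 to 0.65) in intermediate cells. In periportal cells it was -0.97 (-2.15 to 0.27), and each of these intervals spanned 0. Over the first 3 Fos classes in control, Dnajb1 was at 0.556, 0.200 and 0.811 in pericentral cells. It was higher in each successive one of these classes in intermediate and periportal cells.

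Hspa1a and Hspa1b together were at 0.112 UMIs per 10000 in control cells with no Fos UMI and at 0.440 in those with 11 or more, on 18 and 69 UMIs. In cirrhosis cells with no Fos UMI they stood at 0.228, so that within this Fos class the pair was higher in cirrhosis, with a log2 ratio of 1.03 (0.31 to 1.83), against -0.36 over all LSEC-like cells. In the other shared classes the interval spanned 0: the ratio was -0.60 (-1.35 to 0.15) with 1 to 2 Fos UMIs and 0.51 (-0.46 to 1.44) with 3 to 5. By zone, the ratio in cells with no Fos UMI was 2.55 (-0.04 to 7.90) in pericentral, 0.61 (-0.26 to 1.60) in intermediate and 0.40 (-1.23 to 2.44) in periportal cells. Each of these zone intervals spanned 0. These thinned levels are far below 1 UMI per cell.

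Hspa8 was lower in cirrhosis whatever the Fos class. It was at 9.78 UMIs per 10000 in control cells with no Fos UMI and at 11.1 in those with 11 or more, and at 6.60, 6.87 and 7.01 in the 3 cirrhosis classes. Every cirrhosis value lay below every control value. The log2 ratio was -0.57, -0.67 and -0.59 within the 3 Fos classes that both libraries filled, beside -0.61 over all LSEC-like cells. Hspb1, Hsph1 and Hspe1 showed no steady order over the Fos classes in control. Over the 3 Fos classes that both libraries filled, Hsp90aa1 was at 1.14, 1.14 and 1.48 UMIs per 10000 in control. In cirrhosis it was at 1.12, 1.31 and 1.35. Its Pearson's r with Fos across cells was 0.053 in control and 0.040 in cirrhosis, both weak. Hspb1 was at 0.442 in control and 0.284 in cirrhosis cells with no Fos UMI, a log2 ratio of -0.64 (-1.05 to -0.21).

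**Figure D4:**
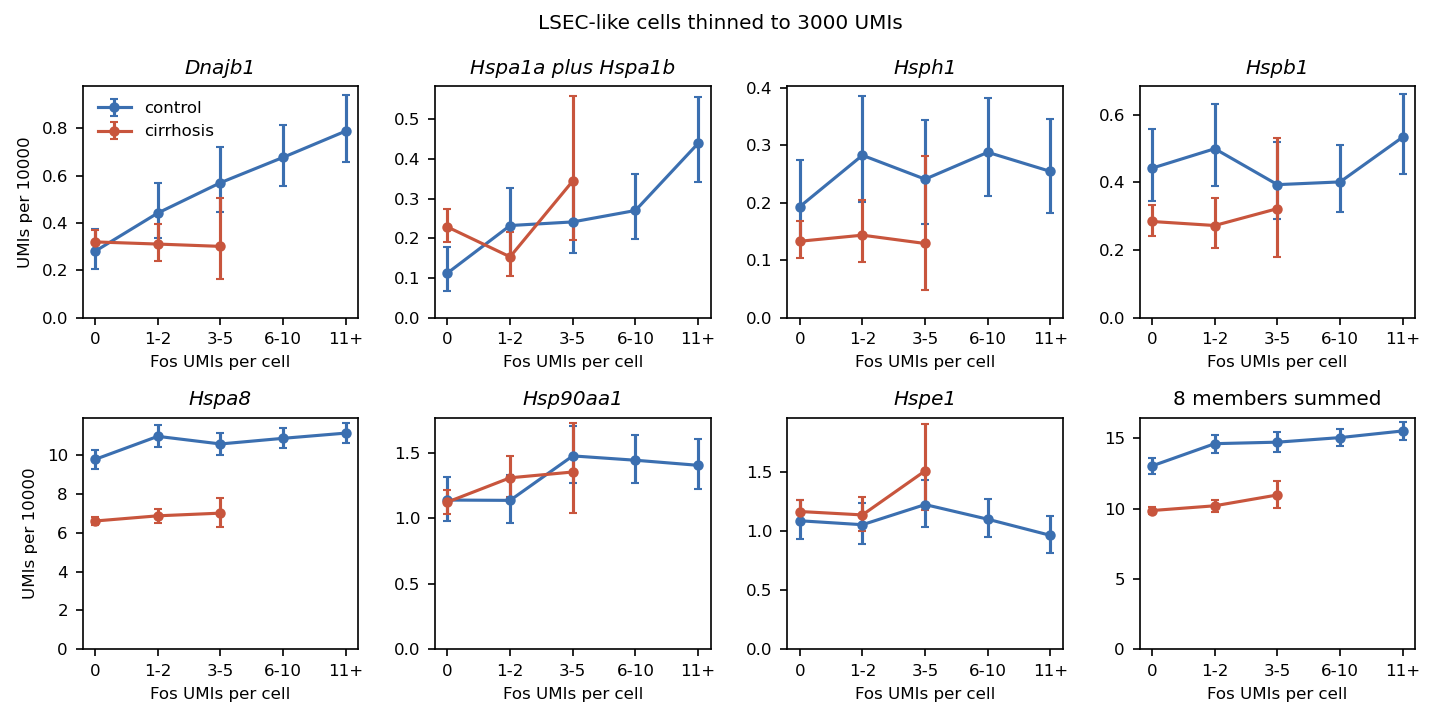
UMIs per 10000 of each heat shock gene, and of the 8 summed, in LSEC-like cells thinned to 3000 UMIs and grouped by their Fos UMIs; lines join the classes of 1 library and bars are exact Poisson 95% intervals. Dnajb1 lies between 0.280 and 0.789 in control, higher in each class, and between 0.301 and 0.320 in cirrhosis, whereas Hspa8 is lower in cirrhosis in each shared class.

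Cells with little Fos also differed in another way. Second-step cluster 4 held 441 control LSEC-like cells with a median of 3565 UMIs, Fos at 205.9 CPM and Gm42418, a gene model known to overlap ribosomal RNA sequence, at 8356 CPM, beside 2198 CPM over all control LSEC-like cells. It supplied 31.8% of the control and 11.1% of the cirrhosis cells with no Fos UMI. Without it, in a reading chosen after the data were seen, Dnajb1 in control was at 0.256, 0.489, 0.576, 0.679 and 0.789 UMIs per 10000 over the 5 Fos classes, and Hspa8 at 10.0 in cells with no Fos UMI and 11.1 in those with 11 or more. Hspa1a plus Hspa1b stood at 0.119 in control and 0.227 in cirrhosis cells with no Fos UMI. The part of depth and of Gm42418 in the levels by Fos class was not tested beyond this. In second-step cluster 2, where control Fos was at 773.5 CPM, Dnajb1 was at 32.5 CPM in control and 34.3 CPM in cirrhosis, while Hspa8 was at 1071 and 698.9 CPM.

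Most of the 8 genes were sparse in thinned LSEC-like cells. In control Hspa1a was seen in 4.42% of them and Dnajb1 in 14.6%, beside Hspa8 in 95.5%. Over the 28 pairs of the 8 genes, Pearson's r across thinned cells was at most 0.12 in size in either library, reached for Hspa1b with Hspb1 in control. Such weak values in sparse counts are no finding, because sparse counts hold r low whether or not genes move together. Across 33 sums of a class in a library, the genes most like Hspa1a plus Hspa1b among 3790 genes were Zfand5 with r = 0.87, Zbtb4 and Rhob with r = 0.81, Ctnnd1 with r = 0.81 and Wdfy3 with r = 0.80. These points share libraries and differ in depth. Across control LSEC-like cells 3909 genes were compared with the sum of Hspa1a, Hspa1b, Dnajb1 and Hsph1. The most alike were Dusp1 with r = 0.16, Jund, Fos and Jun with r = 0.15, and Klf2 with r = 0.14. All 5 are on the immediate-early list of 17 genes, and all were abundant in control, from Jund at 1879 CPM to Fos at 2189 CPM. In cirrhosis, among 3812 genes, the most alike were Thbd with r = 0.12, Slc26a10 with r = 0.09, and Pi16, Tcim and Tiprl with r = 0.08. Fos, at 216.1 CPM there, had r = -0.0011. These values are weak as well, and the part of abundance in the order was not tested.

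The wider chaperone system was read in LSEC-like cells against the same 5.2% and 4.32% of all genes past 1.5-fold. Among 8 measured genes of J-domain proteins 3 were past it lower, Dnajb1 with Dnaja1 at 330.7 and 214.5 CPM and Dnajb4 at 34.0 and 22.4 CPM, and none higher. Dnaja1 and Dnajb4 are, like Dnajb1, cytosolic partners of HSP70; with either other scaling Dnajb1 alone remained past the fold. Of 6 measured HSP70 family genes Hspa8 alone was past the fold, which it lost as given above, and Hspa4, a relative of Hsph1, was at 62.7 and 73.5 CPM. The exchange factor gene Bag1, at 64.6 CPM in control and 122.5 CPM in cirrhosis, was past 1.5-fold higher, the 1 of 8 on its list. None of 10 HSP90 and cochaperone genes was past the fold; Hsp90ab1, the constitutive HSP90 beside Hsp90aa1, was at 714.6 and 976.2 CPM. None of 9 mitochondrial chaperone and protease genes was past it, Hspe1 among them, and their median log2 ratio was -0.09. Of the small heat shock protein list 1 of 8 genes, Hspb1, reached the mean of 20 CPM.

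The CCT chaperonin, which folds actin and tubulin, was higher in cirrhosis in 7 of 7 measured genes, none past 1.5-fold and with a median log2 ratio of 0.23. All 7 were also higher with TMM, where 3799 of all 6964 measured genes were, and with the median of ratios, where 3910 of 6980 were. Cct2 was at 91.1 and 123.2 CPM. Among 12 chaperones of the endoplasmic reticulum 2 were past the fold lower, Hspa5, its HSP70, at 511.9 and 338.1 CPM and Dnajb9 at 91.9 and 61.0 CPM, but 0 of 12 with either other scaling. Of 7 other stress-inducible genes, Hmox1, which breaks down heme, was at 33.8 and 62.4 CPM and Serpinh1, a collagen chaperone, at 152.8 and 246.9 CPM, both past 1.5-fold higher, and Ddit3 was past it lower at 29.8 and 19.0 CPM, which it was not with either other scaling. Hsf1, which encodes heat shock factor 1, was at 34.4 CPM in control and 26.0 CPM in cirrhosis, and Hsbp1, which encodes a protein that binds it, at 125.7 and 162.7 CPM. Of 17 immediate-early genes 15 were past 1.5-fold lower, with a median log2 ratio of -2.26.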

How the data were processed

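The authors deposited 1 table of UMI counts per library, whole numbers by gene symbol and cell barcode, not normalized; Cell Ranger and the mm10 build are named per the submitters' processing notes, with no version, annotation or filter. The heat shock genes, the other gene lists and the tests were chosen with earlier results of these data known.

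Barcodes with at least 500 UMIs, 300 genes, under 20% mitochondrial and under 5% erythroid counts were kept, which removed 475 control and 666 cirrhosis barcodes. The barcodes with the highest Scrublet doublet scores, 0.8% for every 1000 barcodes of a library, were removed, 214 and 470 more. Cells were clustered with scanpy 1.11.5 and leidenalg 0.10.2 on 2000 variable genes and 30 principal components at resolution 0.5. The heat shock, chaperone and immediate-early genes of the lists were left out, and endothelial clusters were clustered again at 1.0. Classes were named from fixed marker lists, while the naming thresholds were set after seeing the data. Other clusters stayed unnamed.

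Within each library the UMIs of a class were summed, and levels are CPM of the class total. Poisson intervals for levels and conditional binomial intervals for ratios are exact (scipy 1.17.1). Ratios were checked on simulated Poisson counts. That is the model of their intervals, so the check could not show whether counts spread more widely between cells. A gene was measured with a mean of 20 CPM and a count in both libraries. Thinning drew UMIs without replacement. Named genes were the 8 genes, up to 3 others per list with the largest ratio at 20 CPM in either library, and the 5 most alike genes by Pearson's r of log2(CPM + 1) over class sums or of thinned counts over cells. Scaling, filters, doublets, clustering, zone and Fos weighting, minimum CPM and thinning depth were varied.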

Additional observations from a re-analysis of the deposited data

Results flagged for a closer look

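7 results went in opposite directions in LSEC-like cells and in another of the 13 classes compared, with both counting intervals clear of 0. Each of the 7 rests on 1 library per group, and the difference between classes was not tested. The same count was not made over all genes, so whether 7 is unusual was not tested. Hsp90aa1 had a log2 ratio of cirrhosis to control of 1.17 in hepatocyte-like cells, 0.76 in the endothelial class with another cell type's transcripts and 0.31 in the mixed endothelial and stellate or fibroblast class, beside -0.14 in LSEC-like cells. Hspb1 had 0.89 in hepatocyte-like cells, 0.55 in the mixed endothelial and stellate or fibroblast class, 0.31 in large-vessel endothelial-like cells and 0.39 in periportal cells, which are themselves LSEC-like, beside -0.66 in LSEC-like cells. Scaling by the median of all gene ratios keeps both intervals clear of 0 in 4 of the 7, those of Hspb1. It takes Hsp90aa1 in LSEC-like cells to -0.05 (-0.13 to 0.02), an interval that spans 0.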

How the results depend on the processing

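With 1 pooled library per group, no value has a replicate check, and depth limits Hspa1a and Hspa1b, which held under 400 UMIs each per library in LSEC-like cells. No paired analysis was possible because the labels give no replicate numbers and each group has 1 library. The median log2 ratio of the 8 genes in LSEC-like cells, -0.63, was -0.54 with scaling by the median of ratios, -0.52 with doublets kept, -0.47 with zones weighted equally, -0.20 with Fos classes weighted equally and 0.040 in cells with no Fos UMI, and otherwise stayed inside its counting interval. The ratio of Hspa1a plus Hspa1b, -0.36, reversed to 1.03 in cells with no Fos UMI and to 0.31 with Fos classes weighted equally. In the same settings Hspa1a reversed to 0.61 and 0.12, Dnajb1 to 0.19 in cells with no Fos UMI, and Hsp90aa1 to 0.020 with Fos classes weighted equally. A reversal here is a change of sign only. In cells with no Fos UMI the intervals of Hspa1a (-0.26 to 1.59) and Dnajb1 (-0.29 to 0.70) spanned 0. Values with Fos classes weighted equally are given without an interval. Why values differed in these settings was not tested, and both settings use fewer cells. The 3 genes past 1.5-fold lower became 1 with TMM scaling, 1 in cells with no Fos UMI, 5 with no minimum CPM and 1 at a mean of 50 CPM. Among all genes, 358 past it lower became 563 in cells with no Fos UMI, 2629 with no minimum and 221 at 50 CPM, and 298 past it higher became 1885 and 193 with the latter 2. In other classes the median of the measured genes was -0.020 in pericentral cells with doublets kept (-0.44), -0.56, -0.57 and -0.61 in intermediate cells with the median of ratios, the stricter filter and doublets kept (-0.64), -0.18 in periportal cells with the stricter filter (-0.44), 0.45 in hepatocyte-like cells with the median of ratios (0.75), where Hsph1 joined the measured genes and the 5 measured before had 0.98, and -0.60 for the T or NK class with doublets kept (-0.51). The stricter filter gave no value for pericentral, hepatocyte-like and plasmacytoid dendritic cell-like cells, which had under 50 cells in a library or no such class. The causes of the other shifts were not tested. Of the single-gene values in LSEC-like cells, 83 stayed inside their intervals, 17 moved outside and 4 reversed. Leaving out second-step cluster 4, leaving out the highest cell of each gene and thinning without Fos matching were chosen after seeing the data; they changed no direction.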
